A study of Mus musculus with 4 samples.

Results

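The transcripts described here are those of Areg, Penk, Calca, Csf1, Tgfb1, Vegfa, Bmp7 and Lif, growth factors and neuropeptides that group 2 innate lymphoid cells (ILC2s) can secrete besides their type 2 interleukins. They were chosen by name rather than by a cut on their values, though with earlier results of these data known. They are 8 of the 17187 genes in the deposited table. ILC2s are lymphocytes without an antigen receptor that live in barrier tissues. The study compared 2 libraries of ILC2s given an antibody against CD226 with 2 libraries of ILC2s given an isotype control antibody, which asks what differs in the cells' RNA when this costimulatory receptor is bound. Per the labels, all cells were sorted ILC2s from lungs of BALB/c mice, kept in culture for 18 h with the antibody, and no genetic change is named for either group. An antibody concentration of 5 µg/mL is given, in wording that may or may not include the isotype control. The sources used here do not give the age and number of the mice, the gate of the sort or any cytokine in the culture. The design text of the series describes mice as having been treated, and a column of the table names PBS for the controls; the sample labels were used for the groups.

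Each library was made with an amplifying low-input cDNA kit. An estimated 12433716 to 17847328 reads lay behind a library, and 16602 to 16847 genes had a value above 0. Values are normalised read counts, that is, estimated reads divided by 1 factor per library, and 1 read was worth 1.03 and 1.10 normalised counts in anti-CD226 replicates 1 and 2, against 1.11 and 0.773 in isotype replicates 1 and 2. All 32 values of the 8 genes were whole numbers of reads within 0.02 of a read, the lowest being 12 reads. Each mean has the SD of its 2 libraries as error (n = 2 in each group). The labels do not tell whether these were separate mice or cultures, so p-values measure the spread between these libraries only, which may be technical.

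The 8 proteins, or peptides cut from them, can act on cells around the ILC2 and, as for CGRP below, on ILC2s themselves. Amphiregulin (Areg) is a ligand of the EGF receptor that is shed from the cell surface and is known for tissue repair by ILC2s. Proenkephalin (Penk) is the precursor of opioid peptides, and Calca encodes calcitonin and, by alternative splicing, the neuropeptide CGRP, which acts on ILC2s themselves through Calcrl and Ramp1. Csf1 sustains macrophages, Lif is a cytokine of the interleukin-6 family, and Vegfa drives growth and leakage of blood vessels. Tgfb1 and Bmp7 belong to the same superfamily of ligands and signal through different SMAD proteins; TGF-beta is made as a latent complex that must be activated outside the cell. Reads are summed over a gene, so calcitonin and CGRP transcripts of Calca cannot be told apart.

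Promoter windows from RefSeq (GRCm38.p6, the 250 bases before the annotated start, read on the gene's strand) were matched for Areg, Calca, Csf1, Tgfb1, Vegfa and Lif, 6 of the 8 genes. The 4 windows below belong to genes that lay on opposite sides of the difference between the anti-CD226 libraries described further on: Areg (chr5:91139349-91139598, plus strand) and Calca (chr7:114636358-114636607, minus strand) were lower in replicate 2 than in replicate 1, and Csf1 (chr3:107760470-107760719, minus strand) and Lif (chr11:4257318-4257567, plus strand) were higher. Capitals mark the cAMP response element TGACGTCA, its core TGACG and the AP-1 site TGACTCA, each searched on both strands.
Areg: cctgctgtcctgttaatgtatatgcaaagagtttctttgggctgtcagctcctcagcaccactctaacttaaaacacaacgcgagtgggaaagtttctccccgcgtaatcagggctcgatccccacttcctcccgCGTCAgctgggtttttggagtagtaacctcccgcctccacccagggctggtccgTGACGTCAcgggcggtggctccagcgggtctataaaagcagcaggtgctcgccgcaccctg
Calca: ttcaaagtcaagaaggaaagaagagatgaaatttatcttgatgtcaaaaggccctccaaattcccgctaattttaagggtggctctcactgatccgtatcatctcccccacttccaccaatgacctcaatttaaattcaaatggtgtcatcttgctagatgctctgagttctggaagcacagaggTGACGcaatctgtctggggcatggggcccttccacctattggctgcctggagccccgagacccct
Csf1: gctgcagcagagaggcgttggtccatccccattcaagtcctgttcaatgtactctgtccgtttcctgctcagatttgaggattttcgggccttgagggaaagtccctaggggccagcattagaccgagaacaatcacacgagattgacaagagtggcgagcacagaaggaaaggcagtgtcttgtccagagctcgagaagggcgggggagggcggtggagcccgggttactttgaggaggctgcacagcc
Lif: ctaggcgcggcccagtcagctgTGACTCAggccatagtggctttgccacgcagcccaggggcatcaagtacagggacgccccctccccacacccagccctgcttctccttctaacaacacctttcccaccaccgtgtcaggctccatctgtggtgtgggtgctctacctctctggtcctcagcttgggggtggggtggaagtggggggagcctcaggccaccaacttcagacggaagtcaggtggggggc
The window of Areg holds TGACGTCA from 61 to 54 bases before the start and another core, read on the other strand, from 115 to 111, with a GC box (GGGCGG) from 52 to 47 and a TATA box (TATAAA) from 31 to 26. Calca has the core alone, from 65 to 61 bases before the start. Lif has an AP-1 site from 228 to 222, and the window of Csf1 holds neither the core nor an AP-1 site, and has GC boxes from 51 to 46 and from 41 to 36. Of 32851 windows of this length over 27025 genes, 1.55% held TGACGTCA, 17.8% the core (which the full element contains), 4.46% the AP-1 site, 32.7% the GC box and 12.4% the TATA box. Of the matched windows not shown, that of Tgfb1 held GC boxes and none of the other motifs. The first window of Vegfa held GC boxes and none of the other motifs. Its second window (chr17:46025164-46025413, minus strand) lies inside the annotated gene. That window held a GC box and the core, from 209 to 205 bases before the start that it precedes. These matches describe the letters of the windows, and binding was not measured. The 4 windows shown were chosen with the difference between the anti-CD226 libraries known, so a contrast of their motifs is no test of a link. Tgfb1 was higher and Vegfa lower in replicate 2, and their windows are not shown. Any part of the motifs in that difference was not tested.

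For none of the 8 genes was a difference between anti-CD226 and isotype ILC2s detected beyond the spread between libraries. Of the 8, 2 were higher on average in anti-CD226 (Csf1 and Bmp7) and 6 lower, and 0 passed limma's adjusted p of 0.05, the smallest adjusted p being 0.98. The background was the same, with 0% of the 13010 genes tested past that threshold. At an unadjusted p below 0.05 there were 0 of 8, where 2.37% of all genes tested lay below it. In 0 of 8 did the values of the groups stand apart without overlap, against 26.8% of all genes tested. The median log2 fold change of the 8 was -0.10, against 0.01 over all genes, of which 51.1% were higher and 48.9% lower. The fold changes below are on the scale of log2(value + 1), with standard errors (SE) and 95% intervals from limma.

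**Figure D1:**
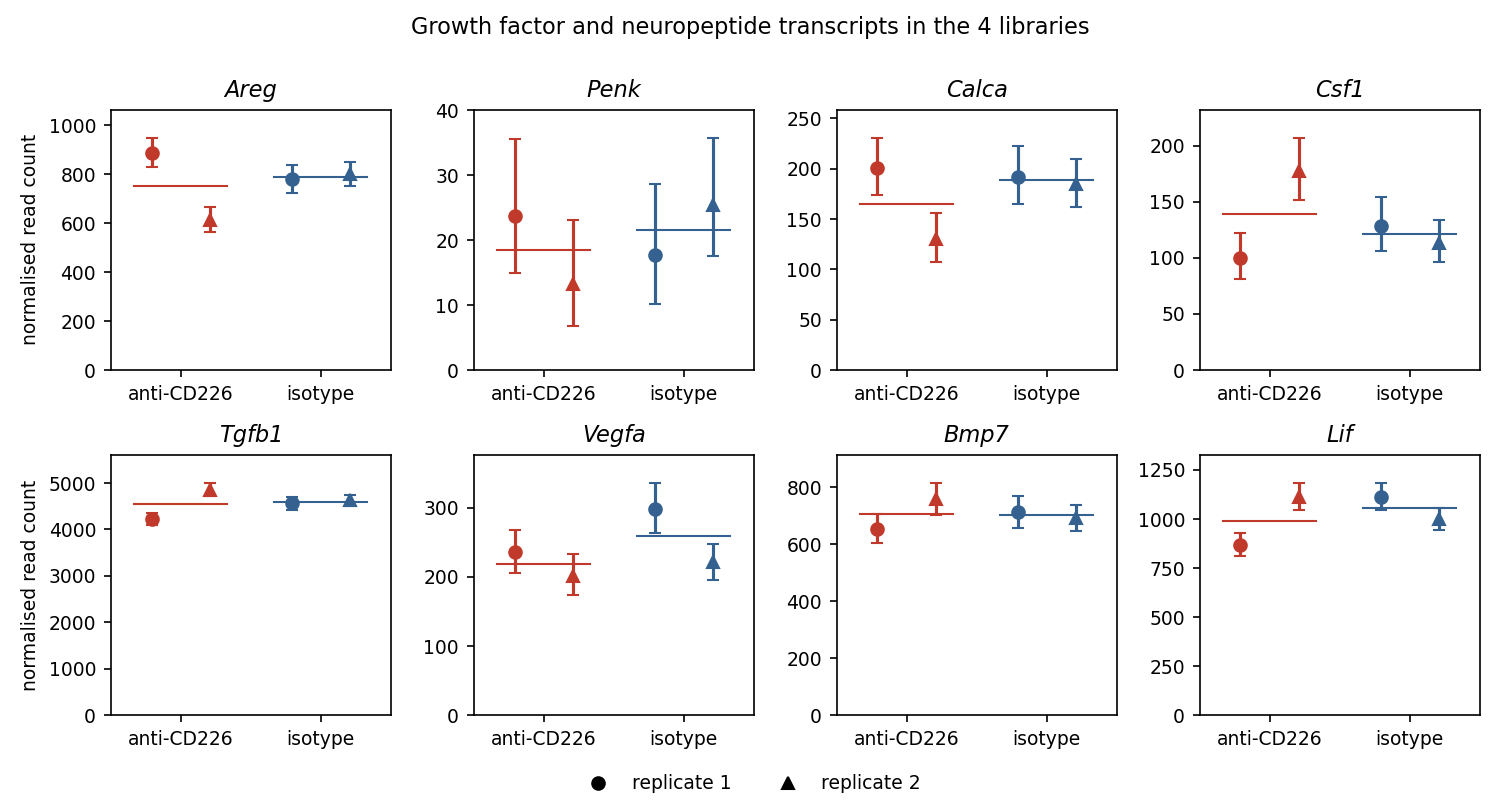
Normalised read count (vertical axes, from 0) of the 8 genes in each anti-CD226 library (left, red) and each isotype library (right, blue); horizontal lines are group means and bars are exact Poisson 95% intervals of the reads, which cover counting error only. In each gene the 2 groups overlap, and in 7 of the 8, all but Vegfa, the 2 anti-CD226 libraries lie farther apart on the log2 scale than the 2 isotype libraries.

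Areg lies on chromosome 5 from 91139599 to 91148432 (GRCm38, plus strand), with 1 annotated coding transcript. It had 889 and 614 normalised reads in anti-CD226 replicates 1 and 2, against 779 and 800.5 in isotype replicates 1 and 2. The isotype libraries were alike and lay between the anti-CD226 libraries, so the groups overlapped. Areg averaged 751 ± 194 in anti-CD226 and 790 ± 15.1 in isotype, a log2 fold change of -0.10 (SE 0.21; limma, adjusted p = 0.98). Its interval, 0.663-fold to 1.32-fold, leaves room for a difference of that size either way. The 863 and 557 reads of the anti-CD226 libraries gave counting intervals of 830.2 to 949.8 and 564 to 667 normalised reads, which did not overlap, while those of the isotype libraries did. The direction of the group difference therefore rested on a single library: without anti-CD226 replicate 2 the log2 fold change of Areg was 0.17, and it was 0.05 after removal of each library's trend with transcript length.

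The neuropeptide genes Penk and Calca had the lowest value of the 4 libraries in anti-CD226 replicate 2. Penk (chromosome 4, 4133531 to 4138819, minus strand) had 23.7 and 13.2 normalised reads in anti-CD226 replicates 1 and 2, against 17.7 and 25.5 in isotype replicates 1 and 2. These rest on 23 and 12 reads in anti-CD226 and 16 and 33 in isotype, the groups overlapped, and so did all counting intervals within each group. The log2 fold change was -0.25 (SE 0.49), and the interval of 0.381-fold to 1.86-fold was the widest of the 8. It turned to 0.15 without anti-CD226 replicate 2 and to 0.0044 without isotype replicate 2. Penk shares 233 exonic bases with A830012C17Rik on the other strand, a gene not analysed here, and the sources used here do not say whether counting used strand.

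Calca (chromosome 7, 114631478 to 114636357, minus strand) had 201 and 130.1 normalised reads in anti-CD226 replicates 1 and 2, against 192 and 185 in isotype replicates 1 and 2. Anti-CD226 replicate 2 was the low library, below the isotype pair, and anti-CD226 replicate 1 lay just above that pair. The means were 165 ± 50.003 in anti-CD226 and 188 ± 5.39 in isotype, a log2 fold change of -0.22 (SE 0.26; 0.570-fold to 1.29-fold). Without anti-CD226 replicate 2 it was 0.09. Markers of neuroendocrine cells and neurons, which also make CGRP, summed to 205 and 182 normalised reads in anti-CD226 replicates 1 and 2 and to 202 and 235 in isotype replicates 1 and 2, from 3 measured genes of 9 listed (Uchl1, Syp and Tubb3). Their part in the values of Calca was not tested.

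The cytokines Csf1 and Lif went the other way between the anti-CD226 libraries. Csf1 (chromosome 3, 107741048 to 107760469, minus strand) had 99.9 and 177 normalised reads in anti-CD226 replicates 1 and 2, against 128 and 114 in isotype replicates 1 and 2. The anti-CD226 libraries held the lowest and the highest value, with the isotype libraries between them. The means were 139 ± 54.9 in anti-CD226 and 121 ± 10.3 in isotype, a log2 fold change of 0.14 (SE 0.30; 0.678-fold to 1.79-fold), which turned to -0.27 without anti-CD226 replicate 2. Csf1r, the receptor for Csf1 that marks macrophages, had at most 2.62 normalised reads in any library. Of the 11 measured macrophage and monocyte markers, 7 were highest in anti-CD226 replicate 2, where Csf1 was highest; among them Chil3 had 16.5 and 784 in anti-CD226 and 19.9 and 0 in isotype, and Mmp12 had 168 and 678 in anti-CD226 and 34.3 and 2.32 in isotype. Their part in the values of Csf1 was not tested.

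Lif (chromosome 11, 4257557 to 4272514, plus strand) had 867 and 1111 normalised reads in anti-CD226 replicates 1 and 2, against 1114 and 999 in isotype replicates 1 and 2. Anti-CD226 replicate 1 was the low library, and replicate 2 lay inside the range of the isotype pair. The means were 989 ± 173 in anti-CD226 and 1056 ± 81.2 in isotype, with a log2 fold change of -0.10 (SE 0.19; 0.685-fold to 1.26-fold). Without anti-CD226 replicate 1 it was 0.07.

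Tgfb1 and Bmp7 had the smallest group differences of the 8. Tgfb1 (chromosome 7, 25687002 to 25705077, plus strand) had 4233 and 4862 normalised reads in anti-CD226 replicates 1 and 2, against 4564 and 4628 in isotype replicates 1 and 2. Both isotype values lay between the anti-CD226 values, with means of 4547 ± 445 in anti-CD226 and 4596 ± 45.4 in isotype. The log2 fold change was -0.02 (SE 0.16), and its interval of 0.762-fold to 1.28-fold was the narrowest of the 8. Its sign turned without anti-CD226 replicate 1 (0.08) and with the length trend removed (0.03).

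Bmp7 (chromosome 2, 172868012 to 172940321, minus strand) had 653 and 757 normalised reads in anti-CD226 replicates 1 and 2, against 712 and 692 in isotype replicates 1 and 2. The isotype libraries again lay between the anti-CD226 libraries, and the means were 705 ± 73.8 in anti-CD226 and 702 ± 14.2 in isotype. The log2 fold change was 0.0031 (SE 0.18; 0.756-fold to 1.33-fold). A sign cannot be read from it: it was below 0 with total, upper quartile and quantile scaling, with the length trend removed, and without anti-CD226 replicate 2 or isotype replicate 2.

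Vegfa was the only gene of the 8 that was lower in anti-CD226 under all 15 alternative settings. It lies on chromosome 17 from 46016993 to 46032369 (minus strand), with 8 annotated coding transcripts that are summed here. It had 236 and 202 normalised reads in anti-CD226 replicates 1 and 2, against 298 and 221 in isotype replicates 1 and 2. Isotype replicate 1 was the high library, and the other isotype library lay between the anti-CD226 values, so the groups overlapped. The means were 219 ± 24.1 in anti-CD226 and 260 ± 54.7 in isotype, a log2 fold change of -0.23 (SE 0.23; 0.592-fold to 1.22-fold; limma, unadjusted p = 0.33, adjusted p = 0.98). Without isotype replicate 1 the log2 fold change was -0.02, and without isotype replicate 2 it was -0.45.

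**Figure D2:**
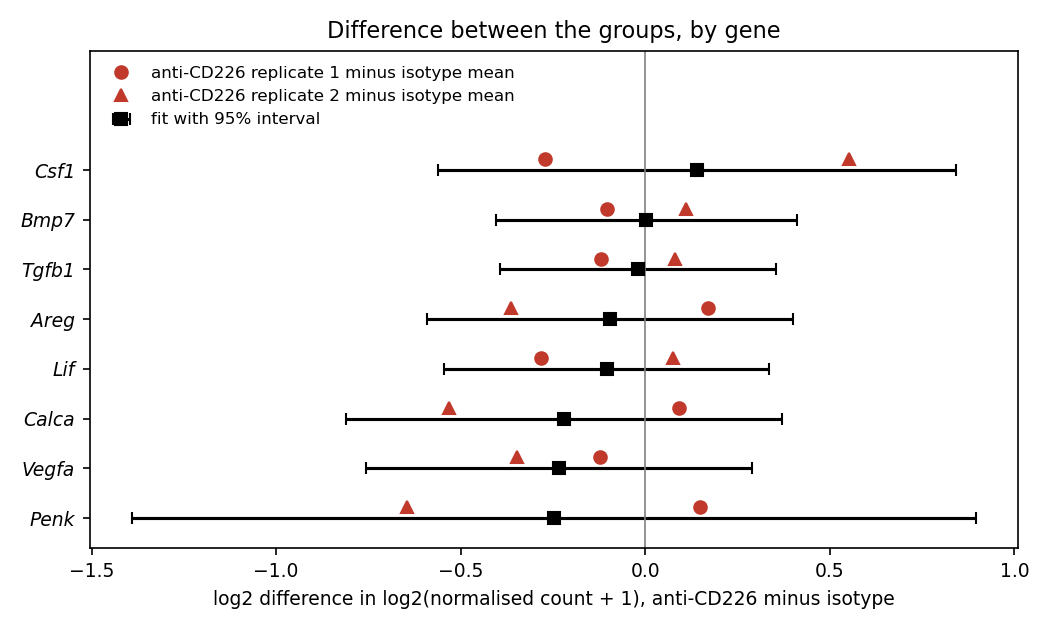
Log2 fold change of each gene, anti-CD226 minus isotype (horizontal axis), as black squares with 95% intervals from limma, with the difference of anti-CD226 replicate 1 (red circles) and replicate 2 (red triangles) from the isotype mean. All 8 intervals span 0, and for Penk, Calca, Areg, Lif, Tgfb1, Bmp7 and Csf1 the 2 anti-CD226 libraries lie on opposite sides of 0.

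For 7 of the 8 genes, all but Vegfa, the 2 anti-CD226 libraries differed from each other more than the groups did. On the log2 scale, replicate 2 minus replicate 1 of anti-CD226 was 0.82 for Csf1, 0.36 for Lif, 0.21 for Bmp7 and 0.20 for Tgfb1. It was -0.22 for Vegfa, -0.53 for Areg, -0.62 for Calca and -0.79 for Penk. The median absolute difference of the 8 was 0.45 between the anti-CD226 libraries and 0.11 between the isotype libraries, against 0.33 and 0.19 over all genes tested. Counting intervals of the 2 libraries did not overlap for 5 of 8 genes in anti-CD226 (Areg, Calca, Csf1, Tgfb1 and Lif) and for 1 of 8 in isotype (Vegfa).

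The sign of that difference went with transcript length in 6 of the 8 genes, those other than Tgfb1 and Vegfa, as it did for most genes of the shortest and longest classes across the table. The genes lower in anti-CD226 replicate 2 included the 3 shortest, Calca with 994, Areg with 1215 and Penk with 1449 bases in their longest annotated coding transcript. Of the 2692 tested genes shorter than 1500 bases, 19.1% were higher in anti-CD226 replicate 2 than in replicate 1, with a median log2 difference of -0.46. Tgfb1, with 2175 bases, falls among 4046 genes of 1500 to 3000 bases, of which 38.7% were higher, with a median of -0.09; it was itself higher, against the median of its class. Bmp7, Lif and Csf1, with 3670, 4026 and 4176 bases, were higher in replicate 2 like 71.4% of the 5999 genes of 3000 bases or longer, whose median was 0.22. Vegfa, with 3451 bases, was lower in replicate 2, also against its class.

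Spearman's rho between length and the difference of the anti-CD226 libraries was 0.90 over the 8 genes and 0.52 over 12737 genes with a length. Between the isotype libraries, as replicate 2 minus replicate 1, it was -0.57 and -0.38. These describe 1 pair of libraries each, and the genes share those libraries. What part length played in the values of single genes was not tested. With the length trend removed, the median log2 fold change of the 8 between the groups was -0.05.

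**Figure D3:**
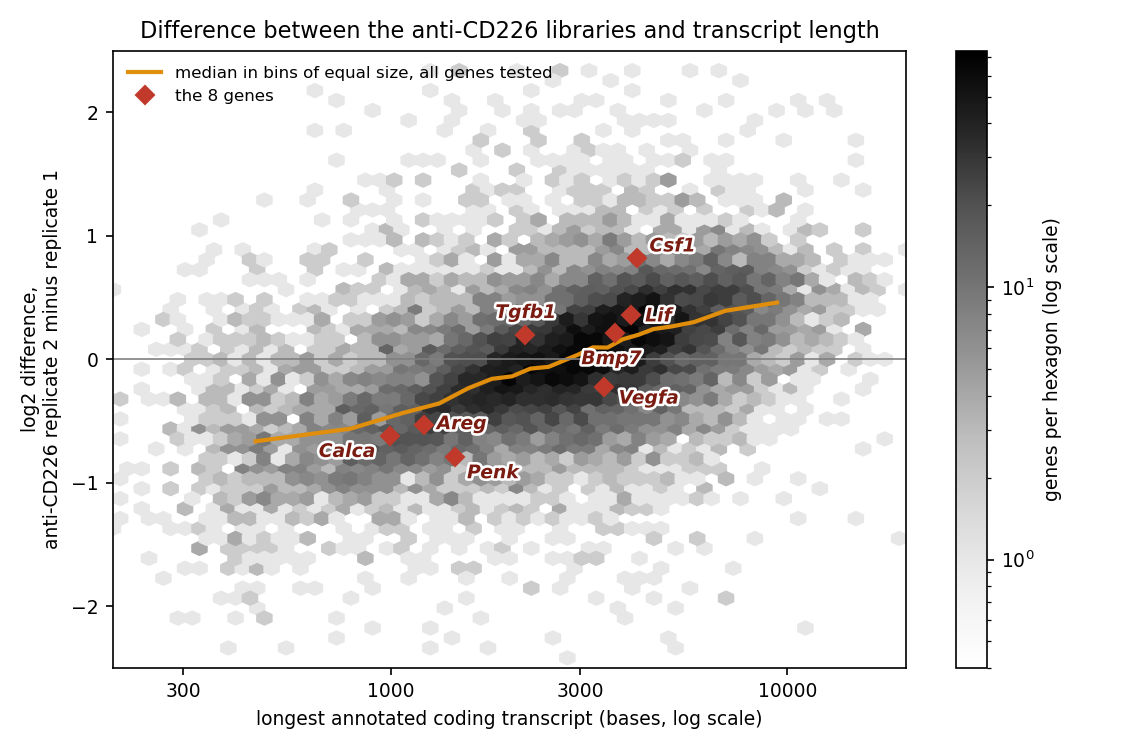
Log2 difference of anti-CD226 replicate 2 minus replicate 1 (vertical axis) against the length of the longest annotated coding transcript in bases (log axis), with genes tested as grey hexagons shaded by number on a log scale, the median in 20 bins of equal size as a line and the 8 genes as diamonds; 69 of 12737 genes lie outside the axes. Calca, Areg and Penk lie left and below 0, Tgfb1, Bmp7, Lif and Csf1 above 0, and Vegfa below 0 among the longer transcripts.

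Levels can be set against each other only per transcript length. Per base of the longest coding transcript, in ppm of a library's summed levels, the order of the isotype means was Tgfb1, Areg, Lif, Bmp7, Calca, Vegfa, Csf1 and Penk. Tgfb1 had a level of 343 ± 67.9 in anti-CD226 and 328 ± 12.6 in isotype, higher than 93.7% of the genes tested in isotype. Areg had a level of 99.7 ± 15.9 in anti-CD226 and 101 ± 2.93 in isotype. Over the 4 libraries the levels of Lif (32.7 to 48.3) overlapped those of Bmp7 (27.0 to 36.1), and those of Bmp7 overlapped those of Calca (22.9 to 31.0). Within each of the 4 libraries Lif was above Bmp7. Bmp7 was below Calca in anti-CD226 replicate 1 and above it in the other 3 libraries, so the order of that pair was not resolved. Vegfa (9.60 to 13.9), Csf1 (3.63 to 7.44) and Penk (1.60 to 2.64) each lay apart from their neighbours. Where a gene has several transcripts the level depends on which length is taken.

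**Figure D4:**
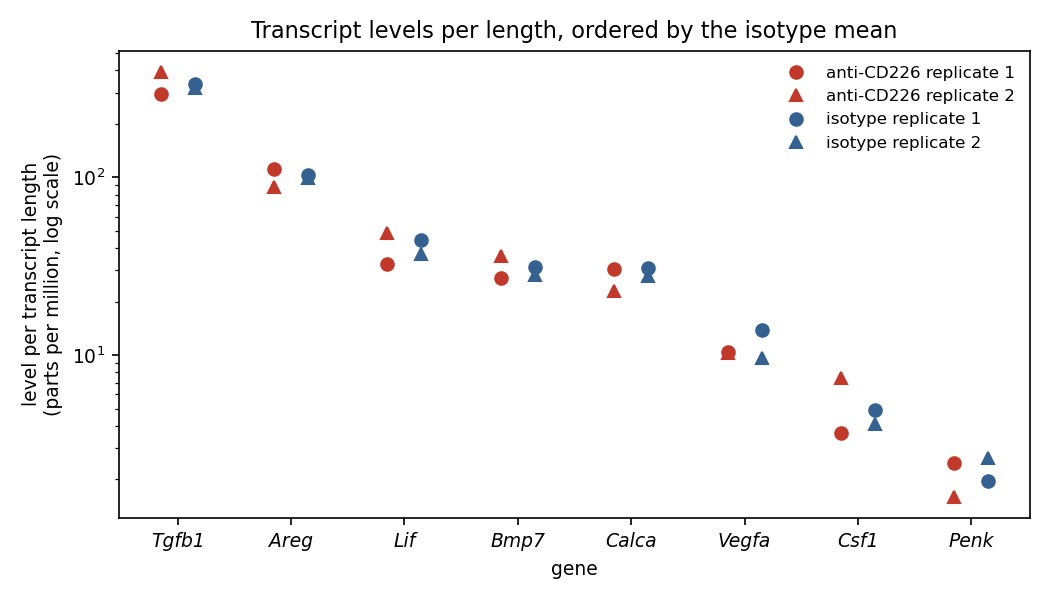
Level per transcript length (ppm of a library's summed levels, log axis) of the 8 genes in order of their isotype means, with anti-CD226 libraries in red left of isotype libraries in blue, circles for replicate 1 and triangles for replicate 2. The levels of the 4 libraries run from 295 to 391 for Tgfb1 down to 1.60 to 2.64 for Penk, and within each gene the groups overlap.

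The partners of these ligands also gave no call. The 10 lists of related genes, which hold the 8 genes too, name 143 genes, of which 91 were measured and 71 tested. Of the 71, 48 were higher and 23 lower in anti-CD226, beside 51.1% higher and 48.9% lower of all genes tested. Their median log2 fold change was 0.13, and 0 had an adjusted p below 0.05 (limma, 0% of all genes tested). At an unadjusted p below 0.05 there were 3, namely Egf, Ramp3 and Smad4, beside 2.37% of all genes tested. The groups did not overlap in 16 of the 71, beside 26.8% of all genes tested. Each adjusted p of a list gene was 0.98 or higher (limma).

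Around Areg, 6 genes of the EGF family were higher and 3 lower of 9 tested (median 0.11), and the ligand Egf was farthest from 0. Egf had 7.21 and 4.41 normalised reads in anti-CD226, against 24.3 and 15.5 in isotype, a log2 fold change of -1.61 (SE 0.61). Both anti-CD226 libraries were below both isotype libraries, at few reads. Adam17, the protease that sheds amphiregulin, had 2025 and 2303 in anti-CD226 and 2196 and 1828 in isotype, with overlap, as in Adam10 and Erbb3. Egfr, the receptor of amphiregulin, had a mean under the minimum of 10 for the test, with 1.03 and 5.51 in anti-CD226 and 13.3 and 6.95 in isotype.

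Of the opioid list around Penk, only Penk and Pcsk1 were tested. Pcsk1, a convertase that cleaves neuropeptide precursors, had 7218 and 10390 normalised reads in anti-CD226, against 8721 and 7803 in isotype, with overlap. Cpe, the carboxypeptidase that trims such peptides, was chosen here after its values were seen: it had 0 and 0 reads in anti-CD226, against 12 and 8 reads in isotype. Its isotype mean was 3.04 times a floor of 3 reads in the anti-CD226 libraries, and isotype replicate 2 alone was 1.93 times that floor. These ratios leave out the counting error of the isotype reads and the spread between libraries. Cpe was too low to be tested.

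Around Calca, the CGRP list had 1 gene higher and 5 lower of 6 tested (median -0.23), beside 48.9% lower of all genes tested. Calca is itself 1 of the 5, and the higher gene, Calcrl, has the longest transcript of the 6. Any part of length in these directions between the groups was not tested. Ramp3, a subunit that turns Calcrl into an adrenomedullin receptor, had 37.1 and 29.8 normalised reads in anti-CD226, against 56.4 and 60.3 in isotype, a log2 fold change of -0.79 (SE 0.32). Ramp1, which makes Calcrl the CGRP receptor, had 3499.6 and 2366 in anti-CD226, against 3548 and 3658 in isotype. For both, each anti-CD226 library lay below each isotype library, replicate 1 of Ramp1 by little. Calcrl itself had 2061 and 2997 in anti-CD226 and 2073 and 1982 in isotype, with overlap, as did Ramp2. Between the anti-CD226 libraries Calcrl, with a transcript of 4882 bases, was higher in replicate 2, and Ramp1 and Ramp3, with 2325 and 1233 bases, were lower, like the medians of their length classes.

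Around Csf1, 3 colony stimulating factors and receptors were higher and 1 lower of 4 tested (median 0.23), with log2 fold changes of 0.31 for Csf2rb, 0.42 for Csf2ra and -0.08 for their ligand Csf2. Of the LIF and interleukin-6 family, 3 were higher and 4 lower of 7 tested (median -0.07). Stat3, which carries the signal of Lif, had 4869 and 6334 in anti-CD226 and 5257 and 4557 in isotype, and the shared receptor subunit Il6st had 174 and 355 in anti-CD226 and 243 and 113 in isotype. The groups overlapped in both and in the feedback target Socs3, and stood apart by less than 1 read in Il6.

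Of the 18 tested genes of the TGF-beta list, 15 were higher and 3 lower (median 0.17), beside 51.1% higher of all genes tested. All but Tgfb1 have transcripts of 3000 bases or longer, the length class whose median was higher in anti-CD226 replicate 2. Any part of length in the direction of this list was not tested. Smad4, the SMAD shared by TGF-beta and BMP signalling, had 1054 and 877 normalised reads in anti-CD226, against 361 and 707 in isotype, a log2 fold change of 0.93 (SE 0.30). Both anti-CD226 libraries were above both isotype libraries. Smad4 did not pass limma's adjusted p with all 4 libraries (0.98), nor with a term for the replicate number. It was among 61 genes called with crossed replicate pairs, a setting added after seeing the data. Furin, the protease that cleaves the TGF-beta precursor, had 33518 and 55672 in anti-CD226, against 34319 and 27961 in isotype, with overlap. The corepressor Ski had 236 and 296 in anti-CD226, against 210.0 and 216 in isotype, without overlap, and Tgfb3 overlapped.

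The BMP list around Bmp7 had 8 higher and 2 lower of 10 tested (median 0.23). The receptors Bmpr1a and Bmpr2 and the signal transducer Smad5 lay above isotype in both anti-CD226 libraries, with log2 fold changes of 0.43, 0.22 and 0.43 in that order. The groups did not overlap in these 3 of the 10, beside 26.8% of all genes tested. The transcripts of the 3, with 5956, 12899 and 6584 bases, are in the length class whose median was higher in anti-CD226 replicate 2. Any part of length in their differences between the groups was not tested. Acvr1, another receptor, had 84.4 and 35.3 in anti-CD226, against 34.3 and 35.5 in isotype, so that anti-CD226 replicate 1 alone stood apart.

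Around Vegfa, 3 genes were higher and 2 lower of 5 tested (median 0.08), and the groups overlapped in all 5. Hif1a, the oxygen-regulated factor that drives Vegfa, had 11065 and 14107 in anti-CD226 and 11361 and 9983 in isotype. The co-receptor Nrp1 and the ligands Vegfb and Vegfc had log2 fold changes of 0.23, 0.08 and -0.07 in that order.

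Receptors and enzymes of neuropeptides and transmitters had 4 higher and 1 lower of 5 tested (median 0.21). Nmur1, the neuromedin U receptor of ILC2s, had 2966 and 3494 normalised reads in anti-CD226, against 2820.1 and 2732 in isotype. Tph1, which starts serotonin synthesis, had 2106 and 1674 in anti-CD226, against 1534 and 1602 in isotype. In both, each anti-CD226 library was above each isotype library; Vipr2 and Nmb overlapped. Among other growth factors, 4 were higher and 1 lower of 5 tested (median 0.05), with Hdgf apart (6142 and 6245 in anti-CD226, 5281 and 5854 in isotype) and overlap in Fgf2, Grn and Manf.

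**Figure D5:**
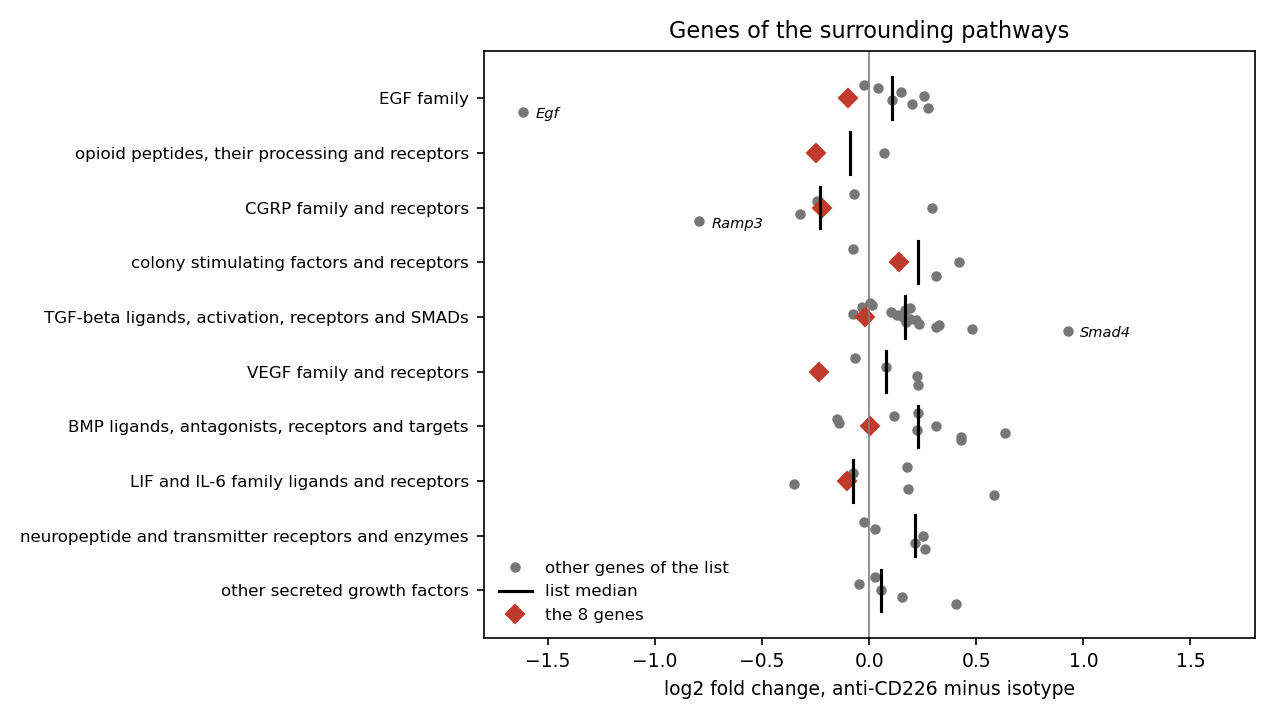
Log2 fold change, anti-CD226 minus isotype (horizontal axis), of the tested genes of 10 lists, with the 8 genes as red diamonds, the other genes as grey points and list medians as bars. Egf (-1.61), Ramp3 (-0.79) and Smad4 (0.93) lie farthest out, and 0 of the genes shown passed the adjusted p.

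In sorted cells measured in bulk, fewer cells of a type and less RNA per cell cannot be told apart. All 10 listed ILC2 markers were measured, summing to 171889.8 and 165695 normalised reads in anti-CD226 replicates 1 and 2, against 181764 and 183151 in isotype replicates 1 and 2. The lower sum in anti-CD226 came from Il5, with 85431 and 67864 in anti-CD226 against 95010.2 and 97655 in isotype, and 6 of the 10 markers were higher on average in anti-CD226. Macrophage and monocyte markers, 11 measured of 15 listed, summed to 595 and 1928 in anti-CD226 and 304 and 292 in isotype, and 8 of the 11 were higher on average in anti-CD226. Ctss, Mmp12 and Chil3 led them by mean, and Mpeg1 had 4.12 and 16.5 in anti-CD226 and 0 and 0 in isotype. Ctss had 289 and 227 in anti-CD226 and 190 and 230 in isotype, with overlap. The groups also overlapped in Apoe (11.3 and 13.2 in anti-CD226, 14.4 and 10.8 in isotype). So they did in Adgre1 (7.21 and 2.20 in anti-CD226, 2.21 and 7.73 in isotype). T cell markers, 8 of 10 measured, summed to 3371 and 2292 in anti-CD226 and 3214 and 3738 in isotype. Most of that sum was Trbc2 (2125 and 1340 in anti-CD226, 1959 and 2370 in isotype) and Trbc1 (837 and 602 in anti-CD226, 857 and 948 in isotype). Cd3g had 319 and 215 in anti-CD226 and 288 and 325 in isotype, while Trac had 2.06 and 3.31 in anti-CD226 and 3.32 and 4.64 in isotype. Mast cell and basophil markers, 9 of 10 measured, summed to 1042 and 1549 in anti-CD226 and 1168 and 984 in isotype. Kit, which other cells also carry, made up most of that sum, with 913 and 1350.1 in anti-CD226 and 950.4 and 768 in isotype, while the basophil protease Mcpt8 had 15.4 and 18.7 in anti-CD226 and 34.3 and 34.8 in isotype. Epithelial markers, 8 of 9 measured, summed to 218 and 234 in anti-CD226 and 204 and 309.8 in isotype. Epcam made up most of that sum, with 190 and 184 in anti-CD226 and 188 and 215 in isotype. Sftpc (22.4), Sftpa1 (10.0), Scgb1a1 (13.1) and Krt8 (13.1) were above 0 in isotype replicate 2 alone. Cdh1 was highest in anti-CD226 replicate 2, with 25.3. Macrophages, mast cells and epithelium can also make several of the 8 ligands; Csf1, Tgfb1 and Bmp7 were highest in anti-CD226 replicate 2, where the macrophage sum was highest, and its part in these values was not tested.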

How the data were processed

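RNA of sorted lung ILC2s was sequenced in 4 libraries, 2 anti-CD226 and 2 isotype, grouped by the sample labels. The authors deposited 1 signal value per gene and library, normalised read counts. STAR 2.7.8, Partek 10.0, DESeq2 and build mm10 are named in the submitters' processing notes; the sources used here do not give counter, annotation or strand. Between 73.5% and 75.1% of values in a library were whole reads, so no count model was run. Of the table's columns, 168 were checked 1 by 1 and the rest assumed to be alike.

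Genes with a mean of 10 or more (13010) were tested on log2(value + 1) with limma 3.58.1 (R 4.3.3, mean-variance trend, 2 residual and 5.81 prior degrees of freedom, Benjamini-Hochberg adjustment over all genes, threshold 0.05). For a single gene, exact permutation of 2 against 2 libraries gives no two-sided p below 0.333. Positions and lengths came from GENCODE M21 on GRCm38, which mm10 denotes; 97.5% of genes had a length. A floor is 3 reads; it and the exact Poisson intervals cover counting error only, and reads of an amplified library are not independent molecules.

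The 8 genes, the lists and the alternatives were chosen with earlier results of these data known. Named are the 8 genes, the 4 (or fewer) other genes with the lowest p of every list, and for each of the 8 the 3 genes of highest correlation. The fit was tested on simulated data. Alternatives covered pseudocount, filter, scaling, variance trend, length, replicate term and left-out libraries.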

Additional observations from a re-analysis of the deposited data

How the results depend on the processing

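No gene of the 8 passed the adjusted p under any of the 16 alternatives, the lowest being 0.147 (Calca, limma, without anti-CD226 replicate 1). The count of genes called was 0 as reported and 0 under the other pseudocounts, filters and scalings, without a variance trend and with the length trend removed. Leaving out a library gave 12 to 1633 calls (12 without isotype replicate 1, 17 without isotype replicate 2, 53 without anti-CD226 replicate 2 and 1633 without anti-CD226 replicate 1); the lone library is then assumed to vary like the other group. With the replicate block the count was 20 (18 higher, 2 lower). Deviations of same-numbered libraries correlated at -0.24 over 13010 genes with 2 pairs. Whether libraries of the same number shared a mouse, culture or batch was not tested. Crossed replicate pairs, added after seeing the data, gave 61 calls (42 higher, 19 lower), 1 of them a list gene, Smad4. Among the 71 list genes tested 0 were called as reported and 0 to 10 with a library left out. The 10 (Acvr2a, Adam10, Calcrl, Furin, Il6st, Itgav, Ramp1, Smad4, Smad5, Tgfb3) came without anti-CD226 replicate 1, beside 1633 of all 13010 genes tested. Without anti-CD226 replicate 2 there was 1, Smad4, beside 53 of all 13010 genes tested.

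Log2 fold changes with a library left out ran from -0.36 to 0.17 for Areg, -0.65 to 0.15 for Penk, -0.53 to 0.091 for Calca, -0.27 to 0.55 for Csf1, -0.12 to 0.081 for Tgfb1, -0.45 to -0.02 for Vegfa, -0.10 to 0.11 for Bmp7 and -0.28 to 0.075 for Lif, and from -0.14 to -0.027 for the median of the 8. Bmp7 also turned with total scaling (-0.0042), upper quartile scaling (-0.023), quantile normalization (-0.021) and the length trend removed (-0.058), and Areg (0.048) and Tgfb1 (0.026) with the length trend removed. The median of the 8 was -0.13 with upper quartile scaling, -0.13 with quantile normalization and -0.052 with the length trend removed. The causes were not tested. Penk, at 12 to 33 reads, has no value under a filter of 50, and its counting error limits it most.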

Other observations

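Over 4 libraries many genes have nearly the same profile as any given gene, which limits what likeness shows. Among 10336 genes with a mean of 50 or more, Pearson's r of log2 values with Areg was 0.95 or higher for 971 genes (9.39%), with Calca for 965 (9.34%), with Csf1 for 710 (6.87%), with Bmp7 for 373, with Tgfb1 for 183, with Lif for 162 and with Vegfa for 118; with Penk it was for 1076 of 10337 genes (10.4%). The genes most like Areg were Rab1a, 6720489N17Rik and Enkd1, those most like Penk were Lsm6, Ier3ip1 and Klhdc8b, and those most like Csf1 were Ankrd13c, Swap70 and Btbd7. For Calca they were Rfc4 and the pseudogenes Rps19-ps1 and Rps19-ps2, whose values were identical in every library. For Tgfb1 they were Krba1, Zfp991 and Gm21982, for Vegfa Prkag2, Tysnd1 and Phf12, for Bmp7 Wdfy1, Slc35e2 and Myo5a, and for Lif AW554918, Slc30a7 and Slc19a2. All these r were above 0.99 and describe 4 points each, with no p.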
